A study of Homo sapiens with 8 samples.

Results

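Protocadherins and giant cadherins are the long-ectodomain branch of the cadherin superfamily. The set was taken by gene symbol from the protein-coding rows of a gene count table: the protocadherins (PCDH), the FAT and DCHS (dachsous) cadherins, the 7-pass CELSR cadherins (CELSR1 to CELSR3) and the calsyntenins (CLSTN1 to CLSTN3). It held 78 of the 60708 rows, and 53 of the 78 passed a filter on low counts, among 16008 genes tested. Of the 78, 53 lie in the clustered PCDHA, PCDHB and PCDHG families on chromosome 5 and 25 lie outside them. The cells were HS578T, an established human breast cancer line of mesenchymal, basal-like character, profiled by sequencing of polyA RNA in 4 groups of 2 libraries. HSF2oe TGF-β cells were given 25 µg of plasmid for exogenous HSF2, a heat shock transcription factor, and 24 h later 10 ng/ml TGF-β1 for 24 h. HSF2oe control cells took the HSF2 plasmid and then assay medium alone for the same time. Mock TGF-β cells were given a GFP (green fluorescent protein) plasmid, also 25 µg, and then TGF-β1 as above, and Mock control cells that plasmid and medium alone. Transfection was transient in all groups, the share of cells that took up plasmid was not given in the sources used here, and counts of HSF2 hold plasmid and endogenous transcripts together. The submitters describe both libraries of each group as biological replicates.

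Cadherins are calcium-dependent adhesion proteins. The clustered protocadherins are best known from neurons, where each cell uses a few promoters of the clusters and the isoforms bind their own kind across cell contacts. Each PCDHA or PCDHG gene has its own large first exon, spliced to constant exons shared by its family, whereas PCDHB genes have a single coding exon. Their promoters carry a conserved sequence element with a CGCT core, and CTCF and cohesin bring them to distant enhancers. FAT4 and DCHS1 bind each other between neighbouring cells, CELSR cadherins organise planar polarity, and calsyntenins link vesicles to kinesin. In a human osteosarcoma line, loss of HSF2 has been reported to lower the expression of many cadherin superfamily genes.

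HSF2 had 780.3 and 489.3 CPM (gene counts normalised to TMM-adjusted library totals, here and below) in HSF2oe TGF-β, 937 and 616 CPM in HSF2oe control, 5.40 and 5.76 CPM in Mock TGF-β and 8.36 and 6.44 CPM in Mock control, so it matched the labels. Total counts ran from 17427645 to 34336107 per library, and a count of 0 allows up to 0.0851 to 0.195 CPM, counting error only. Mesenchymal markers were high (VIM at 3181 to 4176 CPM) and the epithelial cadherin CDH1 stayed at or below 1.17 CPM. The blood marker CD3E had no count in any library, and of 6 neuronal markers ELAVL4 had none, RBFOX3 at most 3 counts, and the other 4 passed the filter, led by TUBB3 at 19.1 to 24.0 CPM and NEFL at 9.81 to 18.4 CPM. The neuronal list summed to 34.6 to 35.4 CPM in HSF2oe TGF-β against 37.8 to 38.97 CPM in HSF2oe control, and to 33.5 to 36.5 CPM in Mock TGF-β against 42.9 to 47.85 CPM in Mock control. TUBB3 ran the other way in HSF2oe cells, at 22.8 and 23.45 CPM with TGF-β against 20.9 and 20.96 CPM in control. In Mock cells the groups of TUBB3 overlapped. A summed list of 8 luminal epithelial markers, most of it the keratin KRT18, ran from 210.2 to 232.5 CPM in HSF2oe TGF-β and from 303 to 305 CPM in Mock TGF-β. It ran from 224 to 248 CPM in HSF2oe control and from 273 to 302 CPM in Mock control, so the sum was lower in HSF2oe than in Mock libraries. GATA3 of the same list ran the other way, at 11.89 to 15.2 CPM in HSF2oe against 7.58 to 8.27 CPM in Mock libraries. The blood markers, led by CD14, summed to 0.591 to 0.81 CPM in HSF2oe TGF-β and 2.21 to 2.46 CPM in Mock TGF-β, and to 1.48 to 2.08 CPM in HSF2oe control and 2.64 to 4.05 CPM in Mock control. The 7 mesenchymal markers, led by fibronectin (FN1), summed to 50700 to 53410 CPM in HSF2oe TGF-β against 37160 to 37470 CPM in HSF2oe control, and to 65290 to 73280 CPM in Mock TGF-β against 38110 to 43860 CPM in Mock control. CAV1 of the mesenchymal list ran the other way, at 605 and 679 CPM in HSF2oe TGF-β against 848 and 1045 CPM in HSF2oe control. In Mock cells CAV1 had 699 and 748 CPM with TGF-β against 1027 and 1058 CPM in control. VIM and CD44 were higher in both HSF2oe TGF-β libraries than in both Mock TGF-β libraries, unlike the sum. The part of these lists in the differences between the groups below was not tested.

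Of the clustered protocadherins, HS578T cells expressed the PCDHB and PCDHG genes, while none of the 15 PCDHA genes passed the filter. The PCDHA genes together had 11 to 29 counts per library, no single gene more than 8 in any library, and PCDHA1 and PCDHAC2 had none. PCDHB passed with 15 of 16 genes (PCDHB1 had no count anywhere) and PCDHG with 21 of 22 (PCDHGB5 had 3 to 10 counts). The counting had no option for reads over several genes, so reads wholly inside the constant exons count for no gene: 2869 bases are common to all 15 PCDHA genes and 2177 bases to all 22 PCDHG genes in the annotation. PCDHA1 keeps only 7 bases of its own, so its 0 says nothing of its transcription. PCDHB genes are close copies of each other, and reads that align to several places were not counted, so single PCDHB levels are uncertain.

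Within PCDHG a single gene stood far above the rest. PCDHGC3 (chromosome 5, 141475947 to 141512977, plus strand, GRCh38), a C-type gamma isoform, took 51.4% to 60.3% of the PCDHG counts in each library. Its level averaged 19.98 CPM per kb of annotated exons, against 4.22 CPM per kb for PCDHGA6, 3.14 for PCDHGB7, 2.71 for PCDHB14 and 2.58 for PCDHB11, the next 4 in order. Counted over the bases that no other gene overlaps, PCDHGC3 had 33.4 CPM per kb, and PCDHGA6 and PCDHGB7, at 5.81 and 5.59, stayed next in order. PCDHB had no such dominant gene: the highest, PCDHB14, held 15.2% to 19.3% of the family's counts. The order of the genes by count was much the same in all libraries: Spearman's rho over 28 pairs of libraries lay between 0.892 and 0.986 for the 15 PCDHB genes and between 0.914 and 0.984 for the 21 PCDHG genes. These are descriptions across genes that share exons, sequence and libraries.

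**Figure D1:**
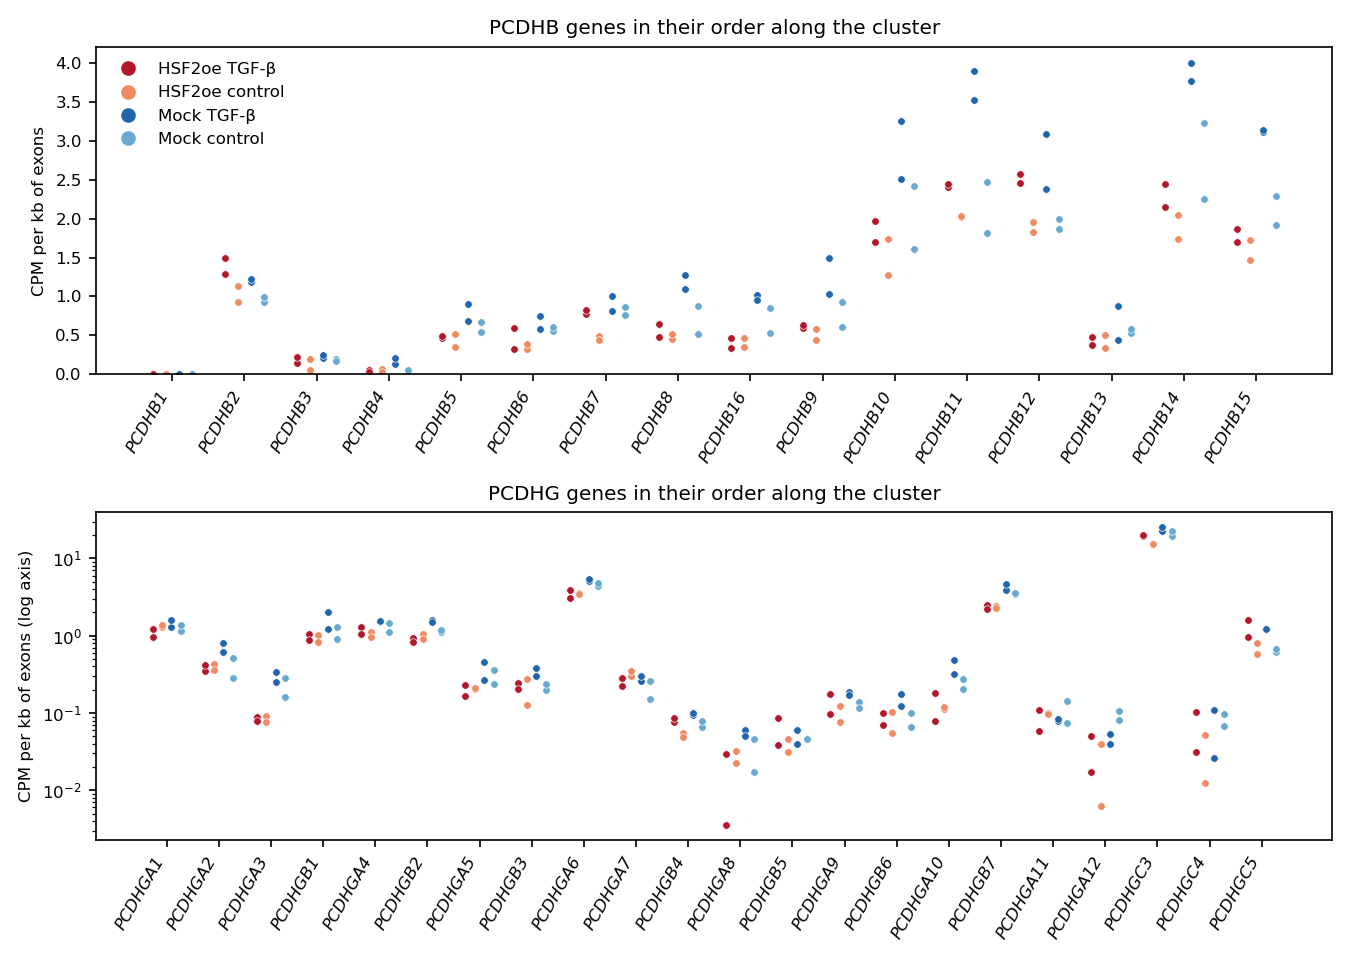
Levels of every PCDHB gene (top, linear axis) and PCDHG gene (bottom, log axis) in CPM per kb of annotated exons, in genome order along each cluster. Each point is a library, 2 per group; PCDHGC3 stands above all other PCDHG genes in every library, and most PCDHB points of Mock TGF-β lie above those of the other groups.

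The promoter windows of RefSeq (GRCh38.p14, 250 bases before to 50 after a gene's start) were at hand for 66 of the 78 members, 47 of them clustered. Of the 15 clustered genes that passed the test in any comparison below, 12 had a window that could be aligned on the core element before the start. These 12 windows of 32 bases are shown because they let the genes that moved be compared at their shared promoter element; all lie on the plus strand of chromosome 5, and capitals mark the core.
PCDHB7: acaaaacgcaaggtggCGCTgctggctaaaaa
PCDHB16: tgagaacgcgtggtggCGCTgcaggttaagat
PCDHB9: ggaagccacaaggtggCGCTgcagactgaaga
PCDHB14: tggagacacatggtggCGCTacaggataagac
PCDHB15: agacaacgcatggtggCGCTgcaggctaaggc
PCDHGA3: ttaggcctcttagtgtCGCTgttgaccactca
PCDHGB1: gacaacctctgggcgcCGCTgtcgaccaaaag
PCDHGB2: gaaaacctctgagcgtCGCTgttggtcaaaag
PCDHGA6: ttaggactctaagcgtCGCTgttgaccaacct
PCDHGA10: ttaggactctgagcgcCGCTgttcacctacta
PCDHGB7: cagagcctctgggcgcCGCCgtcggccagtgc
PCDHGC3: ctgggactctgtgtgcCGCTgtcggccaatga
The PCDHB windows lie at chr5:141172566-141172597 (PCDHB7), chr5:141182310-141182341 (PCDHB16), chr5:141187074-141187105 (PCDHB9), chr5:141223263-141223294 (PCDHB14) and chr5:141245314-141245345 (PCDHB15). Those of PCDHG lie at chr5:141343767-141343798 (PCDHGA3), chr5:141350025-141350056 (PCDHGB1), chr5:141359921-141359952 (PCDHGB2), chr5:141373835-141373866 (PCDHGA6), chr5:141412931-141412962 (PCDHGA10), chr5:141417583-141417614 (PCDHGB7) and chr5:141475880-141475911 (PCDHGC3). The core lies 61 to 71 bases before the start in these PCDHB genes and 40 to 199 in these PCDHG genes. All PCDHB windows shown read GGTGGCGCT, a longer form of the core that stood in 13 of 14 PCDHB promoters and in 0.501% of all 35116 windows. The PCDHG windows of PCDHGA3, PCDHGB1, PCDHGA6, PCDHGA10 and PCDHGC3 read CGCTGT and, after 3 further bases, CC, a form present in 14 of 20 PCDHG promoters, 6 of 13 PCDHA promoters and 1.41% of all windows. PCDHGB7, one of the more abundant PCDHG genes, reads CGCC in place of the core, alone among the 18 aligned PCDHG windows. The PCDHA and PCDHB windows were aligned on letters that contain CGCT, so they read it by construction. CGCT alone is common and stood in 70.0% of all windows; the longer forms contain it, and both strands were searched. They were read off these promoters, so their counts describe the families and test nothing. Over the 32 bases, pairs of windows shared a median of 23 bases within PCDHB, 22 within PCDHG and 16 between PCDHB and PCDHG; the windows were aligned on 9 fixed letters in PCDHB and 5 in PCDHG, which match by construction.

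Heat shock factors bind inverted repeats of GAA, and the windows were searched for such repeats on both strands. GAANNTTC stood in 3 of 13 PCDHA, 2 of 14 PCDHB, 1 of 20 PCDHG and 2 of 19 other promoters (6.77% of all windows), and TTCNNGAA in 1, 1, 2 and 1 of them (7.74% of all windows). Of the members that passed the test below, 3 had a match wholly before the start, shown here with the repeat in capitals.
PCDHB14: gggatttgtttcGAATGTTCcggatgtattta
CELSR3: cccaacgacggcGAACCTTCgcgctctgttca
CLSTN2: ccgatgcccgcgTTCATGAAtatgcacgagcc
They lie at chr5:141223183-141223214 (plus strand), chr3:48663031-48663062 (minus strand) and chr3:139935085-139935116 (plus strand). PCDHB5, PCDHGA4, PCDHGA11 and PCDH19 also had a match before the start, and none of them passed a test below with all 8 libraries. A longer form, with 3 repeat units in place of 2, was searched as well. It stood in 0.490% of all windows and in 1 member, PCDHGA4. Whether matches go with the changes below was not tested. A match is a stretch of letters, not a bound site, and a window without one says nothing about more distant elements.

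Outside the clusters, a calsyntenin and a FAT cadherin were by far the most abundant members. CLSTN1 (chromosome 1, 9728926 to 9823984, minus strand) averaged 169 CPM per kb of exons and FAT1 (chromosome 4, 186587794 to 186726722, minus strand) 49.6 CPM per kb. PCDH18 followed at 9.34, PCDH7 at 7.945 and CELSR3 at 3.59 CPM per kb. FAT1, an atypical cadherin that acts in actin organisation and growth control, held 93.7% to 98.3% of the FAT and DCHS counts of each library. Of the non-clustered protocadherins 7 of 13 passed the filter, and of the FAT and DCHS genes 4 of 6. FAT2 and DCHS2 had 2 to 11 and 2 to 8 counts, PCDH8 at most 2 and PCDH11X at most 1. PCDH15 and PCDH17 had none; PCDH20 had none either, but all except 201 of its bases are shared with other genes. PCDH11Y lies on the Y chromosome and is not described. All 3 CELSR and all 3 CLSTN genes passed. Of the members past the filter, PCDH12 and PCDH19 were the lowest outside the clusters, at no more than 0.436 and 1.11 CPM, and neither passed a test below with all 8 libraries.

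**Figure D2:**
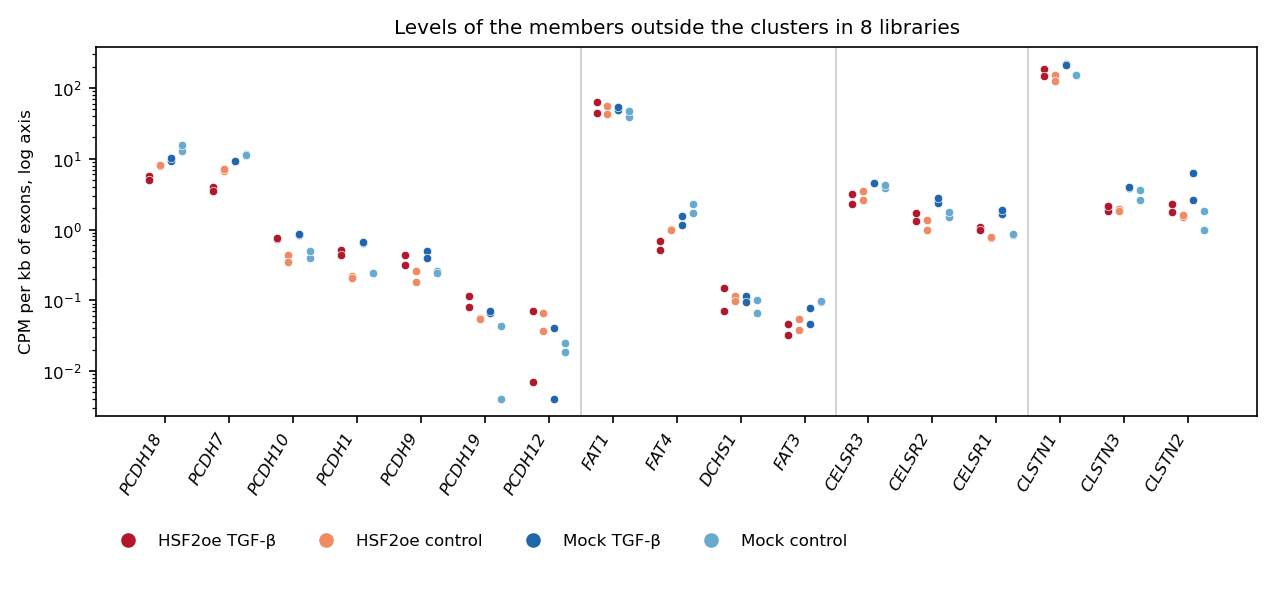
Level of each member outside the clusters that passed the filter, in CPM per kb of annotated exons on a log axis, by family; each point is a library, coloured by group, and counts of 0 are drawn at 0.004. CLSTN1 and FAT1 lie highest in every library, and PCDH18, PCDH7 and FAT4 step up across the 4 groups.

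HSF2 overexpression went with lower levels of many protocadherins and giant cadherins, and no member passed the test in the other direction. With TGF-β, 20 of 53 members fell in HSF2oe against Mock, where 21.5% of all genes tested passed, 11.9% as falls and 9.6% as rises. Without TGF-β, 8 of 53 fell, where 12.1% of all genes passed, 7.22% as falls and 4.88% as rises. The median log2 fold change of the 53 was -0.65 with TGF-β and -0.39 without it, while that of all genes was 0.00 to 2 decimals in both. With TGF-β 46 of 53 changes lay below 0, against 50.3% of all genes, and without it 44 of 53. Scaled by library totals alone, which moved the median of all genes to 0.19 and 0.09, 42 and 39 of the 53 still lay below 0. With TGF-β both HSF2oe libraries lay below both Mock libraries in 36 of 53 members (30.2% of all genes) and above them in 2 (29.7%). Without it they lay below in 28 (29% of all genes) and above in 3 (28.5%). In bulk RNA, fewer cells with a transcript and less transcript per cell cannot be told apart. The 2 comparisons share no library, and 6 of 53 members fell in both, as did 5.64% of all genes: PCDH7, PCDH18, FAT4, CLSTN3, PCDHGA6 and PCDHGB7.

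In PCDH7, PCDH18 and FAT4, 3 of 53 members, the 4 groups did not overlap and lay in one order, which 0.881% of all genes shared. That order was read off these genes, so its share describes them and tests nothing. The 4 groups of PCDH1 and CELSR1 did not overlap either, but lay in another order. Nor did those of PCDH19, a low gene with 0 to 26 counts per library, which ran the opposite way. It had 0.778 and 1.11 CPM in HSF2oe TGF-β, the highest group, and 0 and 0.426 CPM in Mock control, the lowest. The share of all genes with 4 separate groups in any order was not counted. PCDH7 (chromosome 4, 30720415 to 31146805, plus strand), a non-clustered protocadherin, had 49.0 and 43.2 CPM in HSF2oe TGF-β, 83.5 and 88.9 CPM in HSF2oe control, 113.6 and 115.6 CPM in Mock TGF-β and 144.5 and 140.3 CPM in Mock control. Its log2 fold change in HSF2oe was -1.31 ± 0.10 with TGF-β (± SE throughout) and -0.72 ± 0.10 without it (edgeR adjusted p = 9.46e-06 and 0.000889). Each condition lowered it further, so HSF2oe TGF-β libraries held the least PCDH7 and Mock control libraries the most. PCDH18 (chromosome 4, 137518918 to 137532494, minus strand), also non-clustered, had 38.1 and 34.0 CPM in HSF2oe TGF-β, 52.5 and 54.4 CPM in HSF2oe control, 61.6 and 67.45 CPM in Mock TGF-β and 87.35 and 104.3 CPM in Mock control. HSF2oe differed from Mock by -0.84 ± 0.11 both with and without TGF-β (edgeR adjusted p = 0.000332 and 0.00072). FAT4 (chromosome 4, 125314918 to 125492932, plus strand), the FAT cadherin that binds DCHS1, had 14.5 and 10.8 CPM in HSF2oe TGF-β, 21.3 and 20.6 CPM in HSF2oe control, 25.0 and 33.1 CPM in Mock TGF-β and 36.5 and 48.1 CPM in Mock control. Its change was -1.20 ± 0.17 with TGF-β and -1.01 ± 0.16 without it (edgeR adjusted p = 0.000562 and 0.00225). All 6 of these calls held under every alternative run. FAT4's partner DCHS1 was low, at 0.712 to 1.59 CPM, with log2 values of 0.09 ± 0.44 and 0.33 ± 0.42 that did not pass. For PCDH7, 12.7% of the exonic bases overlap a gene on the other strand, and the counting used no strand.

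**Figure D3:**
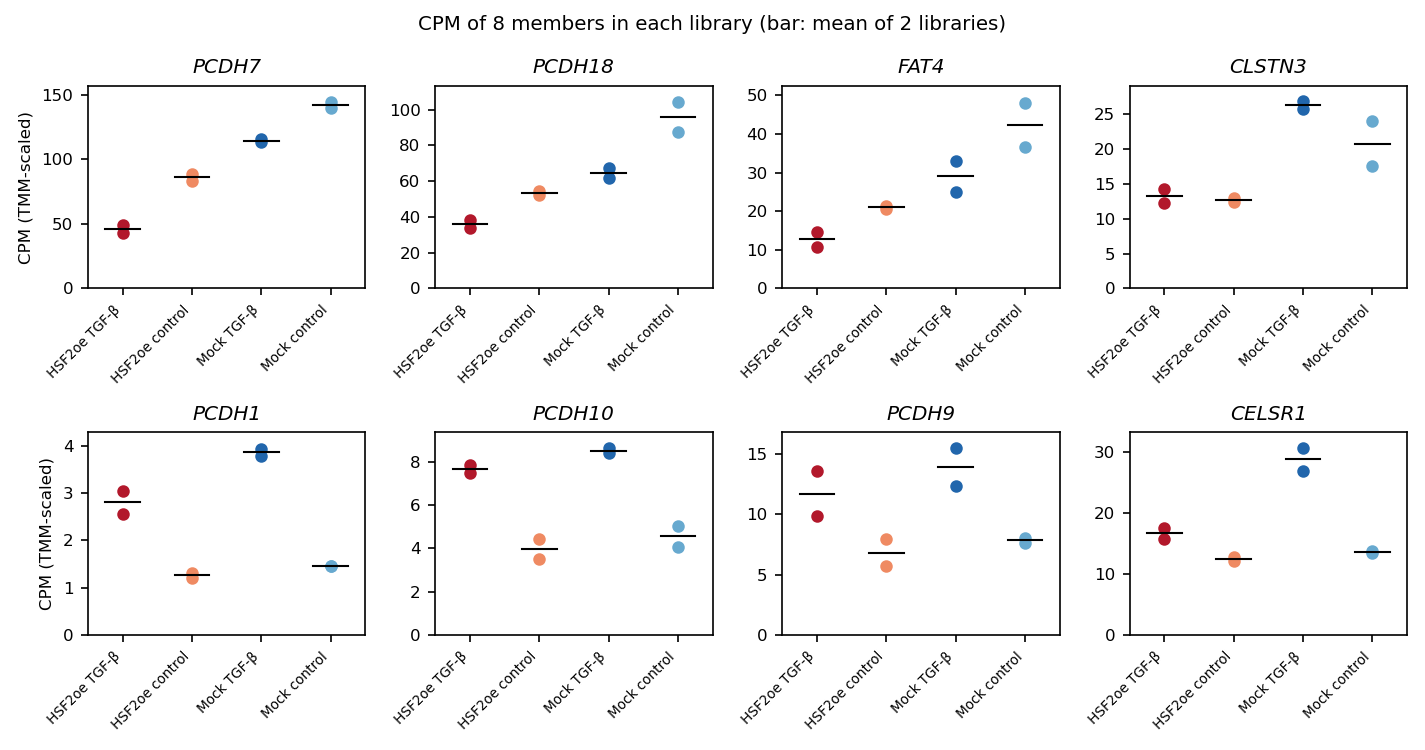
CPM of 8 members in each library, with the mean of the 2 libraries of a group as a bar; groups run HSF2oe TGF-β, HSF2oe control, Mock TGF-β and Mock control. PCDH7, PCDH18 and FAT4 step up from left to right without overlap, whereas PCDH1, PCDH10 and PCDH9 are higher in the TGF-β libraries of either transfection.

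Clustered protocadherins were among the members that fell in HSF2oe, 12 of them with TGF-β and 4 without. With TGF-β, 6 of 15 PCDHB and 6 of 21 PCDHG genes fell, with family medians of -0.67 and -0.59. Without TGF-β, 1 PCDHB (PCDHB7) and 3 PCDHG genes (PCDHGA6, PCDHGB7 and PCDHGC3) fell, with medians of -0.49 and -0.30. Of all genes, 11.9% fell with TGF-β and 7.22% without it. The count of 1 in 15 PCDHB genes without TGF-β is near that share. PCDHGB7 had 12.5 and 10.9 CPM in HSF2oe TGF-β against 19.4 and 23.2 CPM in Mock TGF-β, and 12.01 and 11.4 CPM in HSF2oe control against 17.2 and 17.9 CPM in Mock control. All 4 HSF2oe libraries thus lay below all 4 Mock libraries, with log2 fold changes of -0.86 ± 0.13 with TGF-β and -0.59 ± 0.13 without (edgeR adjusted p = 0.00076 and 0.0116). PCDHGA6 had 31.1 and 24.6 CPM in HSF2oe TGF-β against 40.4 and 43.4 CPM in Mock TGF-β (-0.59 ± 0.12, edgeR adjusted p = 0.00429), and 28.1 and 27.2 CPM in HSF2oe control against 34.5 and 38.2 CPM in Mock control (-0.39 ± 0.12, edgeR adjusted p = 0.0456). PCDHGB2, at 4.48 and 4.05 CPM in HSF2oe TGF-β and 7.68 and 7.33 CPM in Mock TGF-β, fell by 0.81 on the log2 scale (SE 0.18, edgeR adjusted p = 0.00675). The abundant PCDHGC3 had 83.01 and 83.4 CPM in HSF2oe control against 106.2 and 122.6 CPM in Mock control (-0.46 ± 0.10, edgeR adjusted p = 0.0124). With TGF-β it had 104.7 and 108.8 CPM in HSF2oe and 121.9 and 137.3 CPM in Mock (-0.28 ± 0.10, edgeR adjusted p = 0.0691), which did not pass.

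In PCDHB the 2 genes at the downstream end of the cluster had the smallest p. PCDHB15 had 7.44 and 6.74 CPM in HSF2oe TGF-β against 12.4 and 12.5 CPM in Mock TGF-β (-0.81 ± 0.16, edgeR adjusted p = 0.00339). PCDHB14 had 10.8 and 9.51 CPM in HSF2oe TGF-β against 16.7 and 17.7 CPM in Mock TGF-β (-0.76 ± 0.17, edgeR adjusted p = 0.00768). In neither gene did the groups overlap. PCDHB8, PCDHB9, PCDHB11 and PCDHB16 fell as well, by 0.61 to 1.28 on the log2 scale, and so did PCDHGA3, PCDHGA10 and PCDHGB1. Of the members that passed, PCDHGA3 and PCDHGA10 had the largest changes, -1.82 ± 0.49 and -1.70 ± 0.42, on 9 to 49 and 17 to 66 counts per library (edgeR adjusted p = 0.0186 and 0.0116). The 8 PCDHB genes that passed in no comparison lay between 0.0930 and 11.96 CPM, and the 13 such PCDHG genes between 0.0310 and 10.04 CPM. PCDHB16 overlaps other genes over 26.1% of its exonic bases. The PCDHG genes that fell share from 27.5% (PCDHGA6) to 57.2% (PCDHGB1) with other genes, the constant exons of the family included. A gene outside the family covers 11.6% of PCDHGB1. Across all members, 14 of 53 had all 4 HSF2oe libraries below all 4 Mock libraries, as did 10.8% of all genes. PCDHGC5, one of the C-type genes, did not pass: its log2 values in HSF2oe were 0.07 ± 0.25 with TGF-β and 0.11 ± 0.26 without.

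The 7-pass cadherins and calsyntenins fell in the TGF-β comparison, with 1 exception. CELSR1 (chromosome 22, 46360834 to 46537620, minus strand) had 17.6 and 15.7 CPM in HSF2oe TGF-β against 27.0 and 30.7 CPM in Mock TGF-β (-0.79 ± 0.12, edgeR adjusted p = 0.000679). CELSR2 (chromosome 1, 109249539 to 109275751, plus strand) had 22.1 and 16.7 CPM in HSF2oe TGF-β against 30.5 and 35.8 CPM in Mock TGF-β (-0.77 ± 0.17, edgeR adjusted p = 0.00585). CELSR3 (chromosome 3, 48636463 to 48662886, minus strand) had 44.05 and 31.3 CPM in HSF2oe TGF-β against 63.8 and 62.3 CPM in Mock TGF-β (-0.74 ± 0.16, edgeR adjusted p = 0.00513). All 3 were lower by a like amount, while without TGF-β none passed (-0.13, -0.48 and -0.40; edgeR adjusted p = 0.527, 0.0804 and 0.111). CLSTN3 (chromosome 12, 7129698 to 7158945, plus strand) had 12.2 and 14.3 CPM in HSF2oe TGF-β against 25.8 and 27.0 CPM in Mock TGF-β (-0.999 ± 0.15, edgeR adjusted p = 0.000669), and 13.0 and 12.5 CPM in HSF2oe control against 17.6 and 24.0 CPM in Mock control (-0.71 ± 0.15, edgeR adjusted p = 0.00839). CLSTN2 (chromosome 3, 139935185 to 140577397, plus strand) had 25.8 and 33.0 CPM in HSF2oe TGF-β against 37.8 and 90.7 CPM in Mock TGF-β (-1.14 ± 0.32, edgeR adjusted p = 0.0217). The Mock TGF-β libraries of CLSTN2 lay far apart, and without the second the change was -0.37 (edgeR adjusted p = 0.408). CLSTN1, the exception, had 982 and 781.5 CPM in HSF2oe TGF-β and 1152 and 1106 CPM in Mock TGF-β, and did not pass (-0.36 ± 0.12, edgeR adjusted p = 0.057). FAT1, at 1011 and 709 CPM in HSF2oe TGF-β and 796.5 and 882.5 CPM in Mock TGF-β, overlapped between the groups (0.04 ± 0.16, edgeR adjusted p = 0.908). It had 902.8 and 704.3 CPM in HSF2oe control and 636.2 and 771.1 CPM in Mock control (0.19 ± 0.16, edgeR adjusted p = 0.495), again overlapping. FAT3, at 0.739 and 1.054 CPM in HSF2oe control and 1.87 and 1.93 CPM in Mock control, did not pass either (-1.08 ± 0.37, edgeR adjusted p = 0.0767).

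The count with TGF-β leaned on single libraries, Mock TGF-β 2 above all. Without it 11 members fell in place of 20, and the calls of CELSR2, CLSTN2, PCDHB8, PCDHB9, PCDHB11, PCDHB14, PCDHGA3, PCDHGA10 and PCDHGB1 were lost (edgeR adjusted p from 0.0567 to 0.492). Without HSF2oe TGF-β 1, CLSTN2, PCDHB8, PCDHB9, PCDHB11, PCDHGA3, PCDHGA10 and PCDHGB1 were lost (edgeR adjusted p from 0.0743 to 0.135), though the log2 values of PCDHB8 (-1.28), PCDHGA3 (-1.90) and PCDHGB1 (-0.86) were then farther from 0. Without HSF2oe TGF-β 2, PCDHB8, PCDHB16, PCDHGA3 and PCDHGB1 were lost (0.0622 to 0.163). PCDHB8 was also lost without Mock TGF-β 1 (edgeR adjusted p = 0.127) and PCDHGB1 without either HSF2oe control library (0.0532 and 0.0538). In the comparison without TGF-β, PCDH7, PCDH18 and FAT4 passed whichever library was left out. CLSTN3, PCDHB7, PCDHGA6, PCDHGB7 and PCDHGC3 were lost without HSF2oe control 1 (edgeR adjusted p from 0.0658 to 0.189), leaving 3 of 8, and without Mock control 2 (0.0954 to 0.276), when PCDH19, at 0 counts in Mock control 1, passed as a rise. All of these except CLSTN3 were lost without HSF2oe control 2 (0.0576 to 0.169), leaving 4. PCDHB7 and PCDHGA6 were lost without Mock control 1 (log2 values -0.72 and -0.47), and PCDHB7 without HSF2oe TGF-β 2 (-0.80). Other alternatives lost calls too. Without TGF-β, PCDHB7 was lost in 9 of 17, DESeq2 (adjusted p = 0.0679) among them. PCDHGA6 was lost in 6, limma on the deposited log2 CPM (adjusted p = 0.0599) among them. With TGF-β, DESeq2 lost CLSTN2 (adjusted p = 0.108) and limma lost PCDHGB1 (adjusted p = 0.062).

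**Figure D4:**
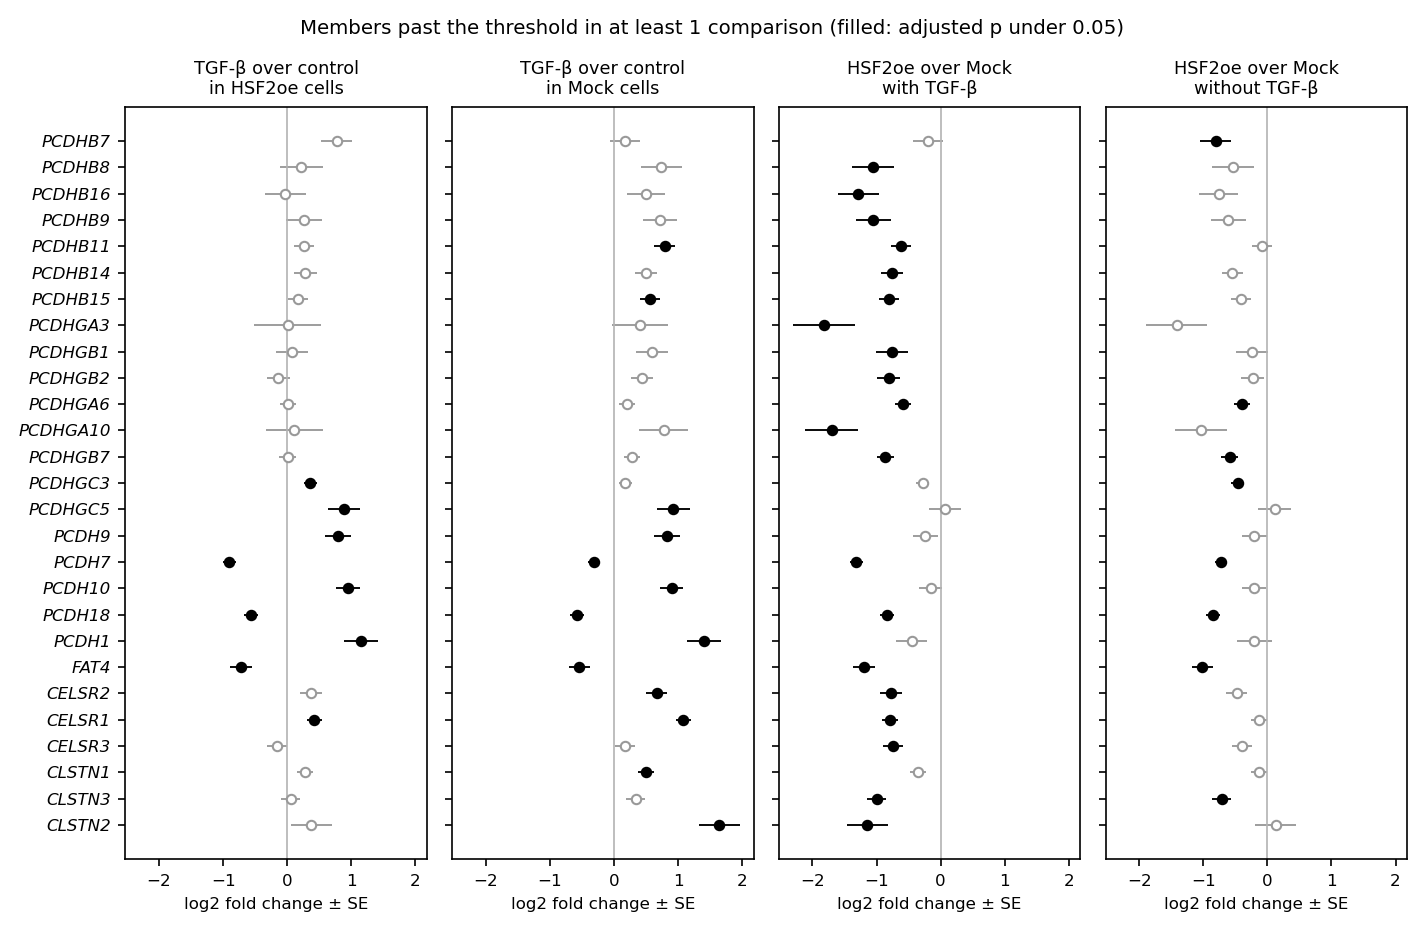
Log2 fold change ± SE of the 27 members that passed the test in at least 1 comparison, by edgeR's quasi-likelihood test over all 8 libraries; filled points have an adjusted p under 0.05. In both panels of HSF2oe over Mock every filled point lies left of 0, and in the TGF-β panels PCDH7, PCDH18 and FAT4 lie left while PCDH1, PCDH9, PCDH10 and PCDHGC5 lie right.

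The members that passed with TGF-β moved in both directions, while most log2 values of the 53 lay above 0. In HSF2oe cells 39 did (48.65% of all genes, median of the members 0.14). In Mock cells 46 did (49.3% of all genes, median of the members 0.43). Scaled by library totals alone, 26 and 38 lay above 0. In HSF2oe cells 6 of 53 rose and 3 fell, where 8.26% of all genes passed, 4.45% as rises and 3.82% as falls. In Mock cells 10 rose and 3 fell, where 13.8% of all genes passed, 7.32% as rises and 6.5% as falls. Both TGF-β libraries lay above both control libraries in 15 members of HSF2oe cells (24.1% of all genes) and 36 of Mock cells (25.7%), and below them in 5 (25.7%) and 5 (26.9%). The 2 comparisons share no library, and 8 members passed in both, each in one direction: PCDH1, PCDH9, PCDH10, PCDHGC5 and CELSR1 rose, as did 3.72% of all genes, and PCDH7, PCDH18 and FAT4 fell, as did 2.59%. PCDH1 (chromosome 5, 141853090 to 141879246, minus strand), a non-clustered protocadherin of epithelia, had 3.05 and 2.56 CPM in HSF2oe TGF-β against 1.32 and 1.21 CPM in HSF2oe control, and 3.78 and 3.94 CPM in Mock TGF-β against 1.46 and 1.45 CPM in Mock control. The rise was 1.15 ± 0.26 in HSF2oe and 1.41 ± 0.26 in Mock cells on the log2 scale (edgeR adjusted p = 0.0143 and 0.00257). PCDH10 (chromosome 4, 133149294 to 133208606, plus strand), known as a tumour suppressor silenced by methylation in carcinomas, had 7.47 and 7.84 CPM in HSF2oe TGF-β against 4.43 and 3.504 CPM in HSF2oe control. It had 8.40 and 8.66 CPM in Mock TGF-β against 4.08 and 5.02 CPM in Mock control, so its TGF-β libraries were higher in either transfection. The log2 rises were 0.95 ± 0.18 in HSF2oe and 0.90 ± 0.18 in Mock cells (edgeR adjusted p = 0.00524 and 0.00495). PCDH9 (chromosome 13, 66302834 to 67230445, minus strand), another non-clustered protocadherin, had 13.6 and 9.85 CPM in HSF2oe TGF-β against 7.93 and 5.67 CPM in HSF2oe control, and 15.5 and 12.35 CPM in Mock TGF-β against 8.06 and 7.60 CPM in Mock control. It rose by 0.79 ± 0.20 in HSF2oe and 0.83 ± 0.20 in Mock cells (edgeR adjusted p = 0.0233 and 0.0131).

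Among the falls with TGF-β, PCDH7 changed by -0.90 ± 0.10 in HSF2oe cells and -0.31 ± 0.10 in Mock cells (edgeR adjusted p = 7.17e-05 and 0.046). PCDH18 changed by -0.57 ± 0.11 in either transfection (edgeR adjusted p = 0.00602 and 0.00328). FAT4 changed by -0.72 ± 0.17 in HSF2oe cells and -0.54 ± 0.17 in Mock cells (edgeR adjusted p = 0.0192 and 0.0456). The levels behind these changes are those given above for the 4 groups. CELSR1 had 17.6 and 15.7 CPM in HSF2oe TGF-β against 12.1 and 12.7 CPM in HSF2oe control (0.43 ± 0.12, edgeR adjusted p = 0.0462). In Mock cells it had 27.0 and 30.7 CPM with TGF-β against 13.45 and 13.8 CPM in control (1.08 ± 0.12, edgeR adjusted p = 5.81e-05). CELSR2 rose in Mock cells, at 30.5 and 35.8 CPM with TGF-β and 19.4 and 22.5 CPM in control (0.67 ± 0.17, edgeR adjusted p = 0.0161), and its value in HSF2oe cells was 0.37 ± 0.17 (edgeR adjusted p = 0.235). CLSTN1 rose to 1152 and 1106 CPM in Mock TGF-β, against 798 and 797 CPM in Mock control (0.50 ± 0.12, edgeR adjusted p = 0.0155). CLSTN2 had 37.8 and 90.7 CPM in Mock TGF-β against 14.5 and 26.6 CPM in Mock control (1.64 ± 0.32, edgeR adjusted p = 0.00363), and 0.87 without the second Mock TGF-β library (edgeR adjusted p = 0.0608).

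Few clustered genes passed with TGF-β, 2 of 36 in HSF2oe and 3 of 36 in Mock cells, where 8.26% and 13.8% of all genes passed. PCDHGC5 rose in either transfection, with 8.0 and 4.775 CPM in HSF2oe TGF-β against 4.08 and 2.88 CPM in HSF2oe control, and 6.055 and 6.199 CPM in Mock TGF-β against 3.07 and 3.35 CPM in Mock control (0.89 ± 0.25 and 0.93 ± 0.26, edgeR adjusted p = 0.0432 and 0.0302). PCDHGC3 rose in HSF2oe cells to 104.7 and 108.8 CPM, against 83.01 and 83.4 CPM in HSF2oe control (0.36 ± 0.10, edgeR adjusted p = 0.0478). PCDHB11 and PCDHB15 rose in Mock cells, by 0.79 ± 0.16 and 0.57 ± 0.16 (edgeR adjusted p = 0.00414 and 0.0275). No clustered gene fell with TGF-β in either transfection, where 3.82% of all genes fell in HSF2oe and 6.5% in Mock cells. Of the 15 PCDHB log2 values, 14 lay above 0 in HSF2oe cells (median 0.27) and 15 in Mock cells (median 0.50). Scaled by library totals alone, which moved the median of all genes to -0.17 in HSF2oe and -0.27 in Mock cells, 11 of them lay above 0 in HSF2oe cells (median 0.11) and 13 in Mock cells (median 0.24). The PCDHG median was 0.07 in HSF2oe cells, which became -0.09 under library totals alone, and 0.43 in Mock cells, which became 0.17.

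Summed over a family, the clusters ordered the groups in a like way. The 16 PCDHB genes summed to 65.65 and 61.8 CPM in HSF2oe TGF-β, 53.0 and 50.7 CPM in HSF2oe control, 90.1 and 101.4 CPM in Mock TGF-β and 58.0 and 74.1 CPM in Mock control. The 22 PCDHG genes summed to 189.5 and 180.4 CPM in HSF2oe TGF-β, 161.4 and 156.9 CPM in HSF2oe control, 235.6 and 263 CPM in Mock TGF-β and 194.7 and 224.2 CPM in Mock control. Both families were highest in Mock TGF-β and lowest in HSF2oe control, and PCDHB of HSF2oe TGF-β overlapped Mock control. The comparison of HSF2oe with Mock under TGF-β and that of TGF-β with control in Mock cells share the Mock TGF-β libraries, so a high level there enters both.

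These TGF-β calls leaned on single libraries too. In HSF2oe cells the call of PCDH7 alone held under every alternative. Without HSF2oe control 2, 2 members (PCDH7 and PCDH18) passed in place of 9, and 4 or 5 passed without any other HSF2oe library. PCDH18 was lost without HSF2oe TGF-β 2 (edgeR adjusted p = 0.0735), PCDH10 without HSF2oe control 2 (0.0626), and PCDH9 without HSF2oe TGF-β 1 or HSF2oe control 2 (0.206 and 0.202). PCDH1, FAT4 and PCDHGC5 were each lost in 3 of these 4 omissions, and CELSR1 and PCDHGC3 in all 4 and without single Mock libraries (edgeR adjusted p from 0.0501 to 0.412). The call of CELSR1 in HSF2oe cells was lost in 12 of 17 alternatives, DESeq2 (adjusted p = 0.0638) and limma on the deposited log2 CPM (0.0561) among them. In Mock cells the calls of CELSR1, PCDH1 and PCDH18 held under every alternative. Without Mock control 1, 5 members passed in place of 13, with CELSR2, CLSTN1, PCDH7, PCDH9, PCDH10, PCDHB11, PCDHB15 and PCDHGC5 lost (edgeR adjusted p from 0.057 to 0.223). Without Mock TGF-β 2, 7 passed, with CELSR2, CLSTN1, CLSTN2, PCDH7, PCDHB15 and PCDHGC5 lost (0.0608 to 0.168). FAT4 and PCDH7, near the threshold, were lost without either HSF2oe control library (0.0543 to 0.0571). Both were lost, with CLSTN1, PCDH9 and PCDHGC5, without Mock TGF-β 1 (0.0782 to 0.276, PCDHB15 as well) and without Mock control 2 (0.0752 to 0.325), when PCDH19 passed as a rise here too (0.0131).

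**Figure D5:**
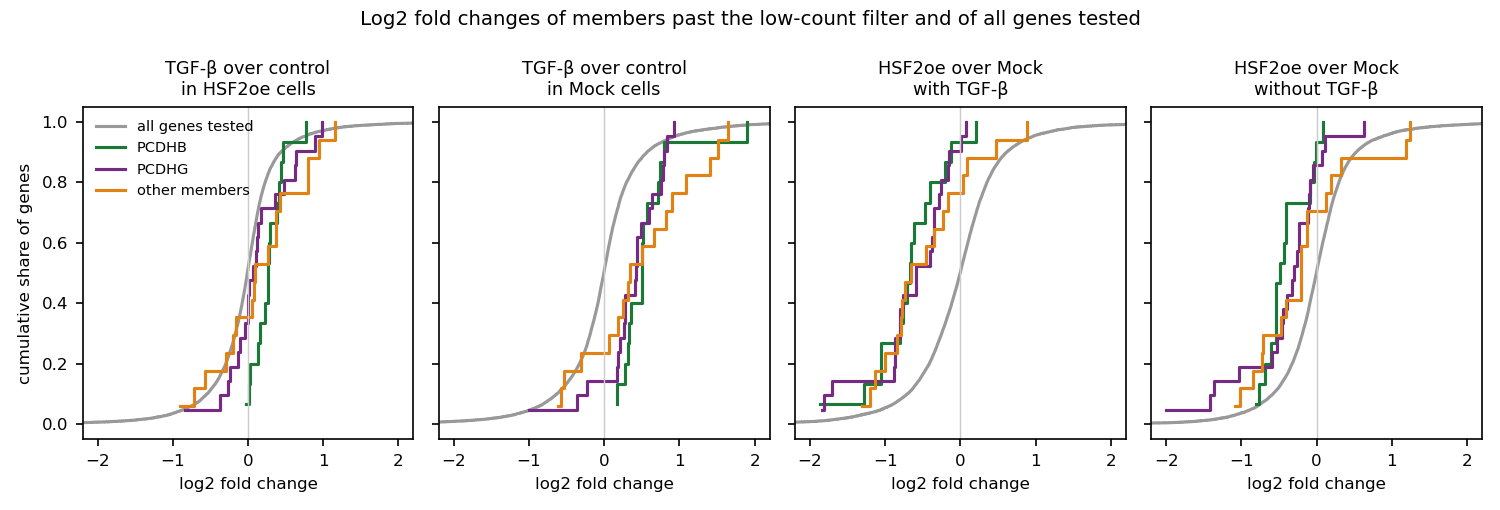
Cumulative share of log2 fold changes for the 15 PCDHB, 21 PCDHG and 17 other members past the filter, and for all 16008 genes tested, in the 4 comparisons. At their middle the 3 member curves lie left of the curve of all genes in both panels of HSF2oe over Mock and right of it in the panel of TGF-β in Mock cells; the upper end of the curve of other members crosses to the right in the panels of HSF2oe over Mock.

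Whether the TGF-β effect itself differed between HSF2oe and Mock cells was tested as an interaction, TGF-β over control in HSF2oe minus the same in Mock. No member and no gene at all passed (0 of 16008 genes, 0%; edgeR's quasi-likelihood test). At an unadjusted p under 0.05 there were 977 of 16008 genes and, among these, 5 of the 53 members: CELSR1, CLSTN2, PCDH7, PCDHB11 and PCDHGB2. Of the 53 interaction values, 41 lay below 0 (49.98% of all genes), with a median of -0.26 against 0.00 for all genes. Scaled by library totals alone, 37 lay below 0. DESeq2 called 23 genes and limma on the deposited log2 CPM no member, and none of the 23 was a member. PCDH7 had -0.59 ± 0.14 (edgeR adjusted p = 0.388), CELSR1 -0.66 ± 0.17 (0.497) and CLSTN2 -1.27 ± 0.45 (0.729), all below 0. With no filter on low counts 83 genes passed, CLSTN2 among them. With the replicate number as a block 78 genes passed, CLSTN2 and PCDH7 among them, though same-numbered libraries share only a number.

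Genes that work with these cadherins were followed in 4 lists. Of all genes, 9.6% rose and 11.9% fell in HSF2oe against Mock with TGF-β, and 4.88% and 7.22% without it. With TGF-β against control, 4.45% rose and 3.82% fell in HSF2oe cells, and 7.32% and 6.5% in Mock cells. Of 17 tested genes of planar polarity and FAT-DCHS signalling, with HSF2oe against Mock 2 rose and 6 fell with TGF-β, and 1 rose and 2 fell without. FJX1, which encodes the human counterpart of the fly kinase four-jointed that acts on FAT and dachsous, rose by 0.98 ± 0.19 without TGF-β (edgeR adjusted p = 0.00679). PTK7, a planar polarity receptor, changed by -0.76 ± 0.10 with and -0.42 ± 0.10 without TGF-β (edgeR adjusted p = 0.000352 and 0.0185), and the polarity adaptor PRICKLE2 by -0.48 ± 0.12 and -0.55 ± 0.12 (edgeR adjusted p = 0.013 and 0.0115). With TGF-β against control, 3 of the 17 rose in HSF2oe and 5 in Mock cells, and none fell. PRICKLE2 rose by 0.78 ± 0.12 and 0.71 ± 0.12, and FRMD6, an upstream gene of the Hippo pathway, by 0.68 ± 0.09 and 0.51 ± 0.09 (edgeR adjusted p at most 0.00216 in all 4).

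Of 19 genes for CTCF, cohesin and silencing of the clustered promoters, 4 rose and 1 fell in HSF2oe against Mock with TGF-β, and 1 fell without. The fall in both was DNMT3A, a DNA methyltransferase, at -0.96 ± 0.18 with TGF-β and -0.59 ± 0.17 without (edgeR adjusted p = 0.00254 and 0.0391). CTCF and the cohesin subunit RAD21 were among the rises with TGF-β, by 0.33 ± 0.10 each (edgeR adjusted p = 0.0249 and 0.0327), as was the maintenance methyltransferase DNMT1, by 0.57 ± 0.10 (edgeR adjusted p = 0.00144). With TGF-β against control, 1 of the 19 fell in HSF2oe and 2 in Mock cells, and none rose. DNMT1 fell in both, by 0.41 in HSF2oe and 0.68 in Mock cells on the log2 scale (SE 0.10 each, edgeR adjusted p = 0.0165 and 0.000364). Of 10 genes for the shedding and cleavage of cadherins, 4 fell in HSF2oe against Mock with TGF-β (edgeR adjusted p at most 0.0103 in all 4). They were the sheddase ADAM10 (-0.55 ± 0.10), the γ-secretase subunits APH1B (-0.63 ± 0.13) and NCSTN (-0.46 ± 0.11), and basigin (BSG, an inducer of metalloproteinases, -0.43 ± 0.10). ADAM10 fell without TGF-β too, by 0.34 (SE 0.10, edgeR adjusted p = 0.0384). With TGF-β against control no gene of these 10 passed in HSF2oe cells, and MMP14, a membrane metalloproteinase, rose in Mock cells (0.64 ± 0.15, edgeR adjusted p = 0.0123). Of 19 tested cytoplasmic partners, none passed in HSF2oe against Mock with TGF-β and only ENAH did without (-0.44 ± 0.13, edgeR adjusted p = 0.0423); with TGF-β against control the actin regulator VASP rose by 0.59 ± 0.09 in HSF2oe and 0.61 ± 0.09 in Mock cells, and the kinase FYN fell by 0.39 in HSF2oe and 0.37 in Mock cells (edgeR adjusted p at most 0.0359 in all 4). ABI2, a subunit of the WAVE actin complex, fell in Mock cells (-0.46 ± 0.11, edgeR adjusted p = 0.0115). No gene of the 4 lists passed the interaction test.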

How the data were processed

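Gene counts of 8 HS578T libraries were analysed. Per the file headers, the authors made the deposited counts with featureCounts 2.0.1 on paired reads with both ends mapped, against GENCODE release 38, with no strand, overlap or multi-mapping option, although the labels name a stranded kit. The submitters' processing notes list STAR 2.7.9a, Subread 2.0.1, edgeR 3.34.1 and GRCh38. A deposited table of log2 CPM covers 13169 genes and 43 of the 53 members tested, so the counts were the main data. Groups follow the titles; a treatment field that contradicts them (DMSO for every Mock library, TGF-β1 for every HSF2oe library) was set aside.

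Testing used edgeR 4.0.16 (R 4.3.3) on the counts: filterByExpr per group with a minimum count of 10, TMM factors, and a quasi-likelihood fit with a mean per group over all 8 libraries (4 residual degrees of freedom), 2-sided, with Benjamini-Hochberg adjustment over 16008 genes and a threshold of 0.05. Standard errors came from the ratio of the absolute log2 fold change to the square root of F. CPM use TMM-adjusted totals. Within groups, chi-square per degree of freedom between the 2 libraries was 12.5 to 26.8, above sampling noise. Alternatives were run with edgeR, limma 3.58.1 and DESeq2 1.42.0. Named members are those past the threshold in any comparison, the 5 most abundant per kb in and outside the clusters, those that failed the filter, and up to 4 genes per partner list and comparison with the smallest p; PCDHA promoters and others named beyond this, such as DCHS1, were chosen after their values were seen. Members and lists were chosen with earlier results of these data known. Motifs were searched in RefSeq promoter windows of GRCh38.p14. A marker of the blood list is not reported here.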

Additional observations from a re-analysis of the deposited data

How the results depend on the processing

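No change of a called member turned its direction under any of the alternatives run; 17 of the 50 calls held under all that gave a value and 33 were lost under at least 1. Leaving out each library in turn gave 2 to 9 members for TGF-β in HSF2oe (9 with all libraries), 5 to 13 for TGF-β in Mock (13), 11 to 22 for HSF2oe with TGF-β (20), 3 to 8 for HSF2oe without TGF-β (8) and 0 for the interaction. Thinning to the lowest library total left 5 members for TGF-β in HSF2oe. With no low-count filter, 13 members passed for HSF2oe without TGF-β and 1, CLSTN2, for the interaction. The remaining counts of members stayed within 1.5 times the main count. Over all genes, library totals alone gave 452 rises and 1593 falls for TGF-β in HSF2oe (712 and 611 with TMM), 608 and 3885 for TGF-β in Mock (1172 and 1040), 3526 and 1073 for HSF2oe with TGF-β (1537 and 1912) and 1432 and 807 for HSF2oe without it (781 and 1156). Leaving out single libraries gave 673 to 1334, 1143 to 2266, 1509 to 3331 and 368 to 1993 calls over all genes in these comparisons. Same-numbered libraries share only a number: their deviations from the group means correlated at 0.16 to 0.443 over 11677 genes in the 6 pairs of groups, with 2 libraries each. With the replicate number as a block, 11, 18, 24 and 12 members passed for TGF-β in HSF2oe, TGF-β in Mock, HSF2oe with and HSF2oe without TGF-β, and 2 for the interaction, CLSTN2 and PCDH7 (edgeR adjusted p = 0.0206 and 0.023); over all genes the block gave 2366, 3350, 4900 and 3614 calls (1323, 2212, 3449 and 1937 without it) and 78 for the interaction, and no low-count filter 83. For 9 PCDHG genes the level per kb moved beyond the spread between replicates when only unshared bases were counted. Depth limits the low members: PCDHGA3, at 0.372 to 1.67 CPM, had a standard error of 0.49 on the log2 scale.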
